A study of Pelodiscus sinensis with 8 samples.

Results

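The first interdigital web is the tissue between digits I and II. Its 2 libraries, 1 of the forelimb (FW1) and 1 of the hindlimb (HW1), were set against the 6 libraries of webs 2 to 4 (FW2 to FW4 and HW2 to HW4), out of 8 in the series. A gene was described as set apart in web 1 when both web 1 libraries lay above the highest, or both below the lowest, of the other 6. Of 14386 genes tested, 3184 (22.1%) met that rule, 1766 above (12.3%) and 1418 below (9.86%), and in another 248 the 2 web 1 libraries lay outside on opposite sides.

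The tissue came from wild type embryos of the Chinese soft-shell turtle, Pelodiscus sinensis, at stage TK19, an embryonic stage of limbs with digits and the webs between them. Web 4 lies between digits IV and V, and the webs are numbered in that order. The same 20 individuals contributed to all libraries, with 40 tissues from both body sides in each pool. Under genotype the labels read "ICD" for forelimb libraries and "anti-ICD" for hindlimb libraries, without an explanation, so web 1 and webs 2 to 4 each hold both tags. Since each position was pooled once, p-values measure only the spread between these pools.

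A limb bud is patterned along the axis that becomes digit I (anterior) to the last digit (posterior). In mouse and chick, Sonic hedgehog from the posterior margin, HAND2 upstream of it and the late HOXD genes set up posterior identity, and the digit I side is known for low HOXD11 and HOXD12 with HOXD13 retained. The tissue between digits later regresses in animals with free digits, under control of BMP, FGF and retinoic acid signals, and persists where feet are webbed.

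Libraries held 53116512 to 65849337 counts. Correlations of log2 CPM (counts scaled to a common library size, with the TMM correction for library composition) between libraries ran between 0.955 and 0.981. On the first principal component, with 36% of the variance, FW1 and HW1 lay at -49.4 and -43.7, FW2 and HW2 at -21.1 and -12.1, and the libraries of webs 3 and 4 between 25.7 and 45.7. The limb mesenchyme markers PRRX1, MSX1 and MSX2 were present in every library: PRRX1 stood at 177 CPM in FW1 and 214 CPM in HW1, against 108 to 238 CPM in webs 2 to 4, and MSX1 at 479 and 470 CPM, against 235 to 546 CPM. SHH had 0 counts in all 8 libraries and FGF8 had 40 in total, and neither was tested. In pooled tissue, fewer cells of a type and less RNA per cell cannot be told apart, which holds for every gene below.

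How far web 1 stood apart depended on which web it was set against. Against web 2, its neighbour, 53 of 14386 genes passed an adjusted p of 0.05 (0.368%), 26 higher (0.181%) and 27 lower (0.188%) in web 1 (edgeR quasi-likelihood test with limb as covariate, Benjamini-Hochberg adjustment). Against web 3, 1373 genes passed (9.54%), 835 higher (5.8%) and 538 lower (3.74%). Against web 4, 1645 passed (11.4%), 972 higher (6.76%) and 673 lower (4.68%). These comparisons share the 2 web 1 libraries, and the counts against web 3 and web 4 were 466 and 732 without FW1, and 761 and 935 without HW1. Against web 3, 302 genes passed without FW3 and 625 without HW3. Between the calls against web 3 and web 4, 593 genes were higher and 376 lower in both, and 0 had opposite signs. Called in all of the comparisons with single webs were 25 genes that rose and 22 that fell.

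Taken as 1 group, webs 2 to 4 gave no call against web 1. In edgeR, 0 of 14386 genes passed (0.0%), the lowest adjusted p was 0.069 and 2952 genes (20.5%) had an unadjusted p under 0.05, 1554 higher (10.8%) and 1398 lower (9.72%). DESeq2 called 1076 genes and limma-voom 255 in that comparison, and edgeR called 376 without FW2 and 415 without HW2. When web was a factor of 4 levels and web 1 was set against the mean of webs 2, 3 and 4, a contrast chosen after seeing the data, 1641 genes passed (11.4%), 1005 higher (6.99%) and 636 lower (4.42%), a count that was 358 without FW1, 686 without HW1 and 908 without FW3. Of these, 1263 were among the 3184 genes set apart. Without both web 2 libraries the pooled comparison called 1367 genes.

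**Figure D1:**
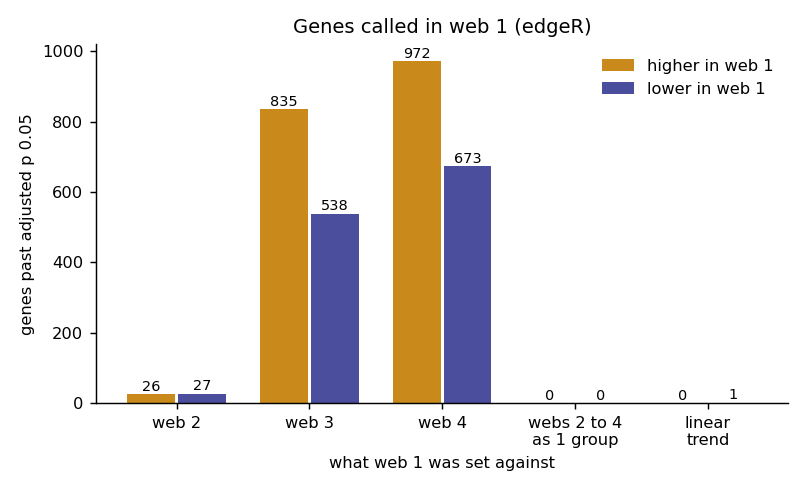
Number of genes past an adjusted p of 0.05 in edgeR (vertical axis), higher (ochre) and lower (violet) in web 1, for each group or term that web 1 was set against. The counts were 26 and 27 against web 2, 835 and 538 against web 3, 972 and 673 against web 4, 0 and 0 against webs 2 to 4 as 1 group, and 0 and 1 beyond a linear trend.

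Most genes set apart lay close to the other libraries. The gap between the nearer web 1 library and the nearest of the other 6 had a median of 0.10 on the log2 scale, while the range of the other 6 had a median of 0.42. The fitted difference was at least 1 log2 unit in 568 of the 3184 genes, 452 above and 116 below. Expression ran in 1 direction over webs 1 to 4 in both limbs in 405 of the 3184 (12.7%), against 550 of all 14386 genes (3.82%), a share that the rule itself raises. In 1165 of the 3184 (36.6%), web 2 came next to web 1 in the order of libraries within each limb. That share was not counted over all genes, so whether it is high for web 2 was not tested. In 126 genes (3.96%), 59 above and 67 below, the gap was wider than the whole range of the other 6. The split into above and below depended on the scale: TPM, the length-scaled values that the authors deposited, gave 2160 above and 831 below.

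**Figure D2:**
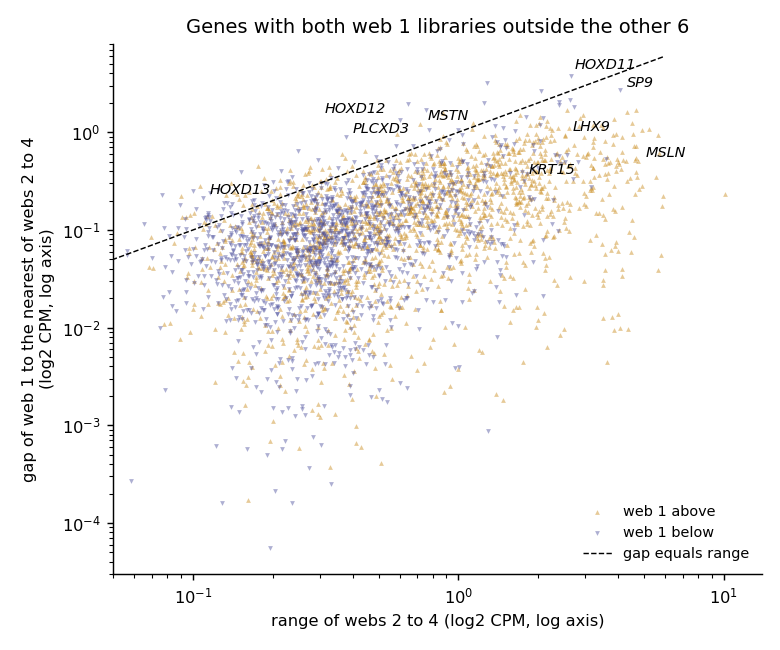
Each point is a gene with both web 1 libraries above (ochre) or below (violet) the other 6; the horizontal axis is the range of webs 2 to 4 and the vertical axis the gap of web 1 to the nearest of them, both in log2 CPM on log axes. In the 126 genes above the dashed line the gap exceeded the range, HOXD11 and HOXD12 among them.

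Among the HOXD genes, HOXD11 had a wide separation and the others narrower ones. HOXD10 to HOXD13 encode homeodomain transcription factors of the distal limb. Of 7 HOXD genes tested these 4 lay below the other 6 libraries in web 1, and 0 lay above, where all genes gave 9.86% and 12.3%. HOXD11 stood at 0.201 CPM in FW1 and 0.351 CPM in HW1, with 12 and 19 counts, against a lowest, median and highest value of 5.15, 26.9 and 32.8 CPM in webs 2 to 4. It was near absent in web 1 of both limbs, and the groups were far apart. HOXD11 was lower than in web 2 by a log2 difference of -4.37 ± 0.247 (SE; edgeR, adjusted p = 7.5e-05) and lower than in web 4 by -6.83 ± 0.244 (adjusted p = 1.9e-07).

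HOXD12 kept a substantial level in web 1. It stood at 120 CPM in FW1 and 133 CPM in HW1, against 335, 465 and 509 CPM (lowest, median, highest) in webs 2 to 4, and the groups did not overlap. Its difference was -1.43 ± 0.0918 from web 2 (edgeR, adjusted p = 0.00012) and -1.94 ± 0.0931 from web 4 (adjusted p = 9.4e-07). HOXD10 stood at 0.988 and 1.03 CPM in FW1 and HW1, against 2.38, 7.38 and 9.85 CPM in webs 2 to 4, with -1.48 ± 0.246 from web 2 (adjusted p = 0.042). Both web 1 libraries were lower than each of the others.

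HOXD13, the most distally and anteriorly expressed of the cluster in other tetrapods, was the least reduced of the 4 genes by log2 difference. It stood at 388 CPM in FW1 and 426 CPM in HW1, against 493, 510 and 532 CPM in webs 2 to 4. Web 1 lay below a narrow range. The difference of -0.33 ± 0.0852 from web 2 did not pass (edgeR, adjusted p = 0.16), and the differences from web 3 (-0.34 ± 0.0853, adjusted p = 0.035) and web 4 (-0.33 ± 0.0852, adjusted p = 0.033) did. HOXD1, HOXD3 and HOXD4 lay inside the range of the other 6, and the median log2 difference of the 7 HOXD genes was -1.28, against 0.0 for all genes.

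In the HOXA cluster, which is paralogous, no gene was set apart by the rule, which takes both limbs together. Of 7 tested, 0 lay outside the other 6 libraries, where 22.1% of all genes did. The median log2 difference of these 7 was -0.41. HOXA11 stood at 8.37 and 13.3 CPM in FW1 and HW1, against 12.4, 15.5 and 16.4 CPM in webs 2 to 4, so the hindlimb library lay within the others. HOXA10 was lower than in web 4 by -0.66 ± 0.187 (edgeR, adjusted p = 0.047) and HOXA3 lower than in web 3 by -0.54 ± 0.117 (adjusted p = 0.016). HOXA13, a distal limb gene, was not analysed here.

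Of 15 posterior limb genes, 7 lay below the other 6 libraries and 1 above, where all genes gave 9.86% and 12.3%. Against web 2, 5 of the 15 fell and 0 rose, against 27 and 26 of all 14386 genes. Against web 4, 6 of the 15 fell and 2 rose, where 4.68% and 6.76% of all genes did. HOXD10, HOXD11 and HOXD12 stand on this list too. HAND2, the basic helix-loop-helix factor of the posterior limb bud, stood at 11 CPM in FW1 and 15.3 CPM in HW1, against 26.9, 63.9 and 110 CPM in webs 2 to 4. Both web 1 libraries were low and apart. Its difference was -1.36 ± 0.0992 from web 2 (edgeR, adjusted p = 0.00023) and -2.75 ± 0.102 from web 4 (adjusted p = 2.2e-07).

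TBX2, a T-box repressor of the posterior limb margin and of interdigital tissue, stood at 28.8 and 26.4 CPM in FW1 and HW1, against 41.4, 64.5 and 102 CPM in webs 2 to 4. It was lower than in web 2 by -0.70 ± 0.119 (edgeR, adjusted p = 0.047), and web 1 and the rest did not overlap. GREM1, a BMP antagonist that hedgehog signalling maintains in the mouse limb bud, stood at 25.8 and 18.7 CPM, against 32.4, 33.6 and 42.3 CPM. It passed against web 3 (-0.85 ± 0.136, adjusted p = 0.0034) and web 4 (-0.59 ± 0.136, adjusted p = 0.018) and not against web 2 (-0.58 ± 0.136, adjusted p = 0.12). SALL1, a zinc finger factor of the same list, went the other way: it was higher than in web 4 by 1.35 ± 0.2 (adjusted p = 0.0015), although FW1, at 13.3 CPM, lay below FW2, at 13.5 CPM.

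Among 17 anterior limb genes, 4 lay above the other 6 libraries and 2 below, where all genes gave 12.3% and 9.86%, with a median log2 difference of 0.0. LHX9, a LIM homeodomain factor, stood at 221 CPM in FW1 and 172 CPM in HW1, against 15.5, 23.0 and 89.7 CPM in webs 2 to 4. Web 1 was high in both limbs, web 2 came next, and the groups did not overlap. LHX9 was higher than in web 2 by 1.48 ± 0.205 (edgeR, adjusted p = 0.02) and higher than in web 4 by 3.40 ± 0.224 (adjusted p = 8.9e-06), the only member of the list to pass against web 2. EMX2, a homeobox gene of proximal and anterior limb territory, stood at 107 and 93.6 CPM, against 62.0, 78.4 and 84.4 CPM, and was higher than in web 4 by 0.52 ± 0.104 (adjusted p = 0.0085).

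Not all anterior genes were high in web 1. PAX9, a transcription factor gene, stood at 6.01 and 5.58 CPM in FW1 and HW1, against 6.80, 7.70 and 9.96 CPM in webs 2 to 4. It was lower than in web 4 by -0.77 ± 0.18 (edgeR, adjusted p = 0.019). IRX5, an Iroquois factor, stood below the other libraries by a very narrow margin, at 36.1 and 33.3 CPM against 36.2, 48.8 and 56.3 CPM. It was lower than in web 4 by -0.63 ± 0.108 (edgeR, adjusted p = 0.0039). It did not pass against web 2 or web 3 (adjusted p = 0.32 and 0.068). ALX4, an anterior repressor of posterior signalling in the mouse, stood at 2.83 and 1.79 CPM, against 0.476, 1.20 and 1.56 CPM, and was higher than in web 4 by 1.99 ± 0.498 (adjusted p = 0.027). MEIS2 stood above the other libraries by a narrow margin, at 17.7 and 17.8 CPM against 13.2, 14.4 and 17.4 CPM, and passed against no web (adjusted p 0.11 to 0.71).

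**Figure D3:**
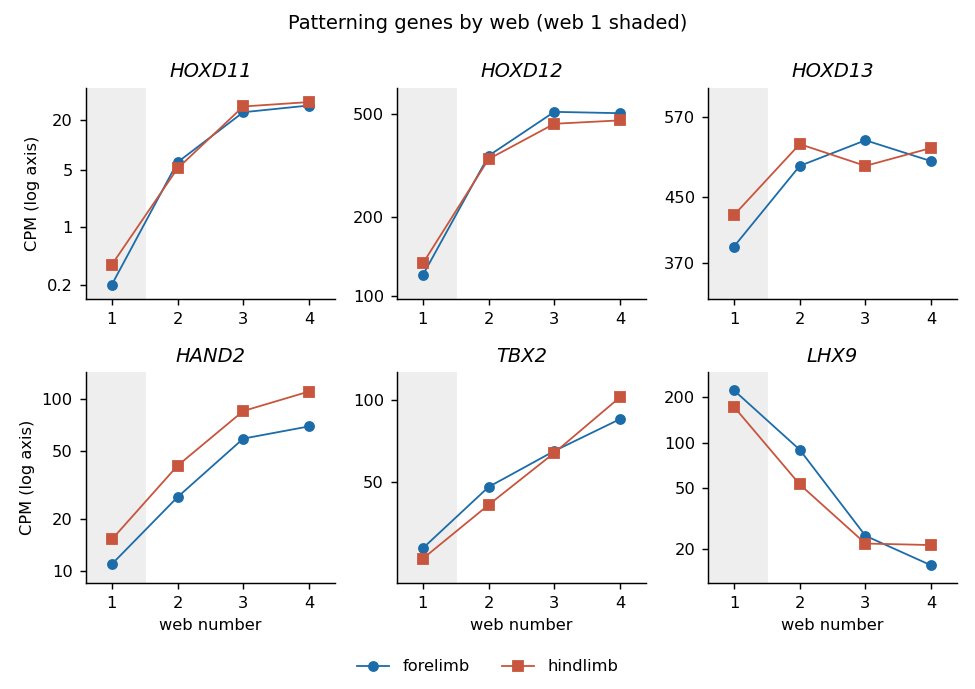
CPM of 6 patterning genes (vertical axes, log scale) by web number in forelimb (blue circles) and hindlimb (red squares), 1 library per point and web 1 shaded. HOXD11 was at 0.201 and 0.351 CPM in web 1 and at least 5.15 CPM elsewhere, HOXD13 in web 1 lay just below the other webs, and LHX9 was highest in web 1.

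Of the 38 symbols called against web 2, 24 fell and 14 rose in web 1. The calls differed in how far they depended on single libraries. With each of the 8 libraries left out in turn, HOXD11, HOXD12, CPA6 and HAND2 passed in 8 of 8 fits, with a highest adjusted p of 0.006. So did ENSPSIG00000003387 and ENSPSIG00000000349, which have no symbol and were higher in web 1 by 1.62 ± 0.127 (edgeR, adjusted p = 0.00037) and 1.65 ± 0.134 (adjusted p = 0.00041). The other 47 passed in 2 to 4 of the 8 fits, and all 53 kept their sign in each fit. The count of calls against web 2 was 257 without FW4, 238 without HW4, and 6 to 14 without FW1, FW2, FW3, HW2 or HW3.

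CPA6, a secreted carboxypeptidase, was among the genes that fell. It stood at 19.7 CPM in FW1 and 24.9 CPM in HW1, against 50.9, 110 and 158 CPM in webs 2 to 4. Both web 1 libraries were well below the others. Its difference was -1.40 ± 0.093 from web 2 (edgeR, adjusted p = 0.00012) and -2.77 ± 0.0963 from web 4 (adjusted p = 1.9e-07).

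Both GABRR2 and GRM3 encode parts of neurotransmitter receptors. GABRR2, a subunit of an ionotropic GABA receptor, stood at 0.837 and 0.776 CPM in FW1 and HW1, against 3.25, 8.30 and 17.1 CPM in webs 2 to 4, with -2.33 ± 0.31 from web 2 (edgeR, adjusted p = 0.02). GRM3, a metabotropic glutamate receptor, stood at 2.88 and 4.38 CPM, against 7.13, 12.8 and 19.3 CPM, with -1.92 ± 0.233 from web 2 (adjusted p = 0.015). For GRM3 the level in webs 2 and 3 was higher than in web 4, so its web 1 value was not the end of a gradient in 1 direction.

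The transcription factor genes GLIS1, TWIST2 and TBX15 also fell against web 2. GLIS1, a zinc finger factor related to the GLI family, stood at 15.2 and 19.4 CPM in FW1 and HW1, against 33.4, 70.1 and 87.7 CPM in webs 2 to 4, and fell by 1.05 on the log2 scale relative to web 2 (edgeR, adjusted p = 0.023). TWIST2, a mesenchymal basic helix-loop-helix factor, stood at 143 CPM in both, against 200, 278 and 364 CPM, with -0.60 ± 0.101 from web 2 (adjusted p = 0.043). TBX15, a T-box gene of limb mesenchyme, stood at 77.5 and 75.8 CPM, against 85.7, 116 and 171 CPM; it differed from web 2 by -0.59 ± 0.0997 (adjusted p = 0.043) and did not pass against web 4 (-0.22 ± 0.0996, adjusted p = 0.2). The groups did not overlap in any of these genes.

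A further 8 genes that fell against web 2 are of mixed kinds. The adhesion molecule CADM2, the integrin subunit ITGA9, the scaffold AKAP12 and the actin-binding SHROOM3 had log2 differences from web 2 of -1.05, -0.70, -0.78 and -1.08. The secreted protease ADAMTS1 had -0.66, the pentraxin PTX3 had -0.55, the lipase MGLL -0.61 and the zinc finger protein BNC2 -0.69 (edgeR, adjusted p 0.02 to 0.05 for these 8). CADM2 stood at 7.15 and 11.2 CPM in FW1 and HW1, against 16.4, 21.7 and 23.0 CPM in webs 2 to 4. Its gap to the others of 0.55 was wider than their range of 0.49 on the log2 scale.

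In TLL1, BDKRB2 and TGFBI a lower level than in web 2 did not set web 1 apart from the rest. TLL1, a tolloid-like metalloproteinase, stood at 31.3 and 42.7 CPM in FW1 and HW1, and 60.7 and 69.5 CPM in FW2 and HW2. It stood at 64.7 and 69.5 CPM in FW3 and HW3, and 35.1 and 35.9 CPM in FW4 and HW4. Web 1 and web 4 were low, and webs 2 and 3 were high. It differed from web 2 by -0.82 ± 0.114 (edgeR, adjusted p = 0.02) and from web 4 by 0.04 ± 0.114 (adjusted p = 0.85). BDKRB2, a bradykinin receptor, had the same form, with -0.82 ± 0.144 from web 2 (adjusted p = 0.049) and 0.14 ± 0.145 from web 4 (adjusted p = 0.6).

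TGFBI, a secreted matrix protein induced by TGF-beta, was the only gene past the test of a web 1 term beyond a linear trend in web number (1 of 14386, 0.00695%, with 1483 at an unadjusted p under 0.05). It stood at 241 CPM in FW1 and 333 CPM in HW1, at 462 and 475 CPM in FW2 and HW2, at 270 and 307 CPM in FW3 and HW3, and at 171 and 204 CPM in FW4 and HW4. Web 2 was the peak in both limbs, and web 1 lay within the range of the rest. The trend term for TGFBI was -1.38 (edgeR, adjusted p = 0.0045). It was lower than in web 2 by -0.72 ± 0.101 (adjusted p = 0.02) and higher than in web 4 by 0.60 ± 0.101 (adjusted p = 0.0031). DESeq2 called 214 genes in the trend test, and edgeR called 0 without FW2, 3 without HW1, 4 without FW4, 5 without FW1 and 9 without FW3.

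Several genes that rose against web 2 are epithelial. KRT15, a keratin of basal epidermis, stood at 2330 CPM in FW1 and 1560 CPM in HW1, against 370, 454 and 1230 CPM in webs 2 to 4. It was higher than in web 2 by 0.78 ± 0.109 (edgeR, adjusted p = 0.02) and than in web 4 by 2.31 ± 0.114 (adjusted p = 1.1e-06). DSP, the desmosomal plaque protein desmoplakin, stood at 855 and 539 CPM, against 253, 260 and 424 CPM, with 0.87 ± 0.141 from web 2 (adjusted p = 0.041). Web 1 was highest and web 2 next in both limbs, and FW1 exceeded HW1 in both genes.

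KRT75, another keratin, stood at 719 CPM in FW1 and 330 CPM in HW1, against 91.0, 116 and 253 CPM in webs 2 to 4, with 1.34 ± 0.209 from web 2 (edgeR, adjusted p = 0.033). SFN, known as stratifin and abundant in epidermis, and ZNF750, a regulator of epidermal differentiation, rose against web 2 by 0.78 and 0.74 (adjusted p 0.041 and 0.033). EN1, a homeobox gene of ventral limb ectoderm, stood at 38.1 and 33.8 CPM in FW1 and HW1, against 19.9, 22.6 and 25 CPM, with 0.65 ± 0.111 from web 2 (adjusted p = 0.043). In EN1 webs 2 to 4 lay close together and web 1 lay above them by a gap of 0.44, against their range of 0.32 on the log2 scale.

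Of 20 tested members of the epidermis list 11 lay above the other 6 libraries and 0 below, where all genes gave 12.3% and 9.86%. The median log2 difference of the list was 0.48. Among all genes, 0.181%, 5.8% and 6.76% rose against webs 2, 3 and 4, and 0.188%, 3.74% and 4.68% fell. Of the list, 3 rose and 0 fell against web 2, and 11 rose and 0 fell against web 3. Against web 4, 9 of the list rose and 3 fell. The 3 that fell were TFAP2A, TP63 and KRT18, named after their values were seen. The summed level of the list was 5604 CPM in FW1 and 3734 CPM in HW1, against 1792 to 3054 CPM in webs 2 to 4. Of the listed markers in the table, KRT19 had 0 counts in all 8 libraries. GRHL3, an epidermal transcription factor, stood at 58.6 and 41.1 CPM, against 14.3, 15.7 and 32.6 CPM, and rose against web 4 by 1.78 ± 0.158 (edgeR, adjusted p = 6.1e-05). The part that the amount of epidermis has in these calls was not tested.

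Genes of the apical ridge and limb ectoderm went both ways, with 5 of 9 above the other 6 libraries and 2 below. All genes gave 12.3% above and 9.86% below. SP9, a zinc finger factor of the apical ridge in mouse and chick, was near absent: it had 4 counts in FW1 and 4 in HW1 (0.067 and 0.0739 CPM), against 0.66, 1.97 and 11.6 CPM in webs 2 to 4. It passed against web 3 and web 4 (edgeR, adjusted p = 0.00094 and 4.6e-05) and not against web 2 (adjusted p = 0.066). The distal-less genes DLX2, DLX3, DLX5 and DLX6, homeobox genes of ridge and distal limb, were instead highest in web 1. DLX5 stood at 266 and 232 CPM, against 101, 118 and 201 CPM, and DLX6 at 53.5 and 50.6 CPM, against 13.0, 17.4 and 39.5 CPM. DLX5 was higher than in web 4 by 1.26 ± 0.106 (adjusted p = 4.3e-05) and DLX6 by 1.94 ± 0.108 (adjusted p = 3e-06), while neither passed against web 2 (adjusted p 0.11 to 0.21).

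Other genes that rose against web 2 were of mixed kinds. SLC40A1, the iron exporter ferroportin, stood at 935 CPM in FW1 and 623 CPM in HW1, against 257, 378 and 449 CPM in webs 2 to 4 (0.91, edgeR, adjusted p = 0.023). BTG2, an antiproliferative gene, stood at 399 and 311 CPM, against 116, 120 and 224 CPM (0.74 ± 0.101, adjusted p = 0.02). SLC7A10, an amino acid transporter, the adhesion molecule ALCAM, the small GTPase gene RAB40B and C11orf52 rose by 0.71, 0.63, 0.83 and 1.00 (adjusted p 0.042 to 0.05). In all 6 genes both web 1 libraries lay above the other 6.

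MSLN encodes mesothelin, a surface protein of mesothelium. It stood at 56.0 CPM in FW1 and 27.6 CPM in HW1, against 0.68, 2.01 and 19.4 CPM in webs 2 to 4, where FW2 and HW2 held 19.4 and 12.6 CPM. It was higher than in web 2 by 1.32 ± 0.198 (edgeR, adjusted p = 0.029) and than in web 4 by 5.05 ± 0.246 (adjusted p = 1e-06). CALB1, the calcium-binding protein calbindin, stood at 21.7 and 10.3 CPM, against 0.0731, 0.707 and 5.36 CPM, and UPK3B, a uroplakin also found in mesothelium, at 37.7 and 29.8 CPM, against 14.2, 19.7 and 27.8 CPM. These genes belong to a list of 4 tested members that was drawn up around genes known from earlier results of these data, and 3 of the 4 lay above the other libraries.

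**Figure D4:**
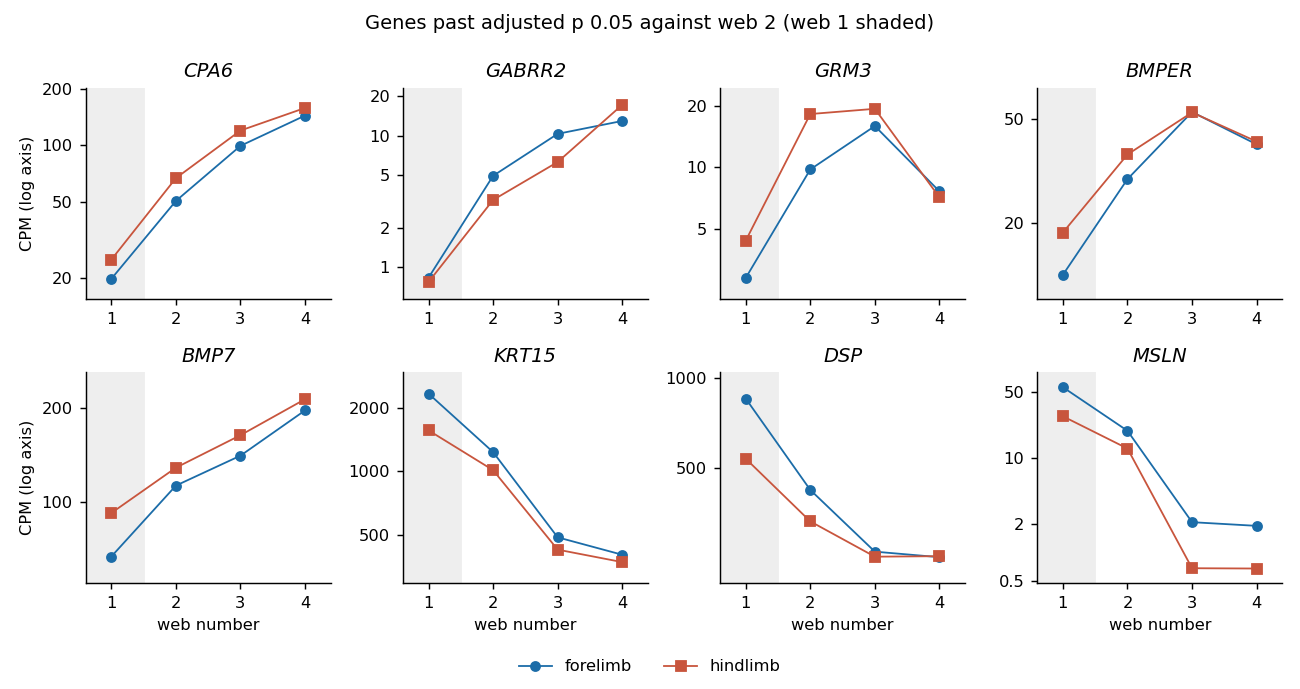
CPM of 8 genes past an adjusted p of 0.05 between web 1 and web 2 (vertical axes, log scale) by web number in forelimb (blue circles) and hindlimb (red squares), 1 library per point and web 1 shaded. CPA6, GABRR2, GRM3, BMPER and BMP7 were lowest in web 1 in both limbs, and KRT15, DSP and MSLN were highest there.

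Among BMP ligands and receptors, 4 of 17 lay below the other 6 libraries in web 1 and 2 above. All genes gave 9.86% below and 12.3% above. BMP7, a ligand of the interdigital tissue, stood at 66.9 CPM in FW1 and 92.3 CPM in HW1, against 113, 152 and 214 CPM in webs 2 to 4, and the groups did not overlap. It was the only member called against web 2 (-0.61 ± 0.0938, edgeR, adjusted p = 0.031), and it was lower than in web 4 by -1.38 ± 0.095 (adjusted p = 1.2e-05). BMP5, another ligand, was higher instead, at 178 and 182 CPM against 84.7, 106 and 152 CPM, with 0.92 ± 0.12 from web 4 (adjusted p = 0.00073). BMPR1A, a type I receptor, was lower than in web 4 by -0.49 ± 0.0941 (adjusted p = 0.0068).

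Of 12 extracellular BMP antagonists and modulators 4 lay below the other 6 libraries and 0 above, and against web 4, 4 fell and 3 rose. Of 8 BMP target genes 2 lay above and 0 below, and against web 4, 4 rose and 0 fell. The shares of all genes were 12.3% above and 9.86% below, with 6.76% that rose and 4.68% that fell against web 4. BMPER, a secreted BMP-binding protein, stood at 12.7 and 18.4 CPM in FW1 and HW1, against 29.4, 40.4 and 53 CPM in webs 2 to 4, with -1.09 ± 0.14 from web 2 (edgeR, adjusted p = 0.02). The target ID4, an inhibitor of basic helix-loop-helix factors, stood at 105 and 82.6 CPM, against 50.2, 62.5 and 80.0 CPM, with 0.74 ± 0.0966 from web 4 (adjusted p = 0.00073). ID4 did not pass against web 2 (0.24 ± 0.0959, edgeR, adjusted p = 0.33). Against the mean of webs 2, 3 and 4, 4 targets rose and 1, ID3, fell, where 6.99% and 4.42% of all genes did. The summed level of the targets was 2546 CPM in FW1 and 2757 CPM in HW1, against 2041 to 2994 CPM in webs 2 to 4, so the sums overlapped.

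Of 11 FGF ligands and receptors 2 lay below the other 6 libraries and 0 above, and 3 fell and 1 rose against web 4. Of 12 FGF feedback and target genes 3 lay below and 0 above, and 5 fell and 0 rose against web 4. The shares of all genes were 9.86% below and 12.3% above, with 4.68% that fell and 6.76% that rose against web 4. FGF10, the mesenchymal ligand of limb outgrowth, stood at 48.1 and 52.9 CPM in FW1 and HW1, against 64.9, 86.2 and 114 CPM in webs 2 to 4, and FGF7 at 35.2 and 43.0 CPM, against 46.0, 67.7 and 82.1 CPM. They were lower than in web 4 by -1.05 ± 0.108 (edgeR, adjusted p = 0.00016) and -0.98 ± 0.102 (adjusted p = 0.00018). ETV5, a transcription factor induced by FGF, stood at 9.18 and 10.2 CPM, against 13.7, 15.3 and 17.5 CPM, below a range narrower than the gap. FGFR3, a receptor, was higher than in web 4 by 0.98 ± 0.138 (adjusted p = 0.0012), with HW1 at 49.1 CPM below FW2 at 52.3 CPM. No member of these lists passed against web 2.

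The genes for retinoic acid turnover were split. Of 15 on the list 3 lay below and 1 above, against 9.86% and 12.3% of all genes. CYP26A1 and CYP26C1, enzymes that degrade retinoic acid, were lowest in web 1: CYP26A1 stood at 10.5 and 9.68 CPM in FW1 and HW1, against 13.0, 22.8 and 31.5 CPM in webs 2 to 4, and CYP26C1 at 1.44 and 1.61 CPM, against 2.60, 4.63 and 7.50 CPM. They were lower than in web 4 by -1.63 ± 0.17 (edgeR, adjusted p = 0.00018) and -2.10 ± 0.272 (adjusted p = 0.00068), and neither passed against web 2. CYP26B1, the third enzyme of this kind, went the other way: it stood at 97.6 and 85.6 CPM, against 28.7, 51.6 and 98.2 CPM, with 1.48 ± 0.187 from web 4 (adjusted p = 0.0006) and 0.85 ± 0.183 from web 3 (adjusted p = 0.017). FW1 overlapped FW2, so CYP26B1 was not set apart in web 1. Over the list 4 genes rose and 3 fell against web 4, where 6.76% and 4.68% of all genes did.

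In the Wnt list of 39 genes, 12 lay below the other 6 libraries and 5 above, where all genes gave 9.86% and 12.3%. Against web 4, 14 fell and 7 rose, shares above the 4.68% and 6.76% of all genes. The receptor FZD4 stood at 43.5 and 46.2 CPM in FW1 and HW1, against 65.3, 75.2 and 86.3 CPM in webs 2 to 4, with -0.62 ± 0.111 from web 2 (edgeR, adjusted p = 0.054) and -0.82 ± 0.112 from web 4 (adjusted p = 0.00097). WNT5A, the ligand of limb outgrowth, stood at 579 and 630 CPM, against 726, 829 and 898 CPM, with -0.46 ± 0.0808 from web 4 (adjusted p = 0.0045). FZD10, another receptor, and NKD1, a feedback inhibitor, were also below the rest, with -1.52 ± 0.142 and -0.37 ± 0.0782 from web 4 (adjusted p = 8.5e-05 and 0.012). SFRP1, a secreted inhibitor, was above, at 73.1 and 80.5 CPM against 36.2, 41.8 and 67.4 CPM, with 0.89 ± 0.103 from web 4 (adjusted p = 0.00035).

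Notch pathway genes included targets on both sides. Of 14 tested, 4 lay above and 1 below, where all genes gave 12.3% and 9.86%. HEY1, a target gene, stood at 146 and 118 CPM in FW1 and HW1, against 35.7, 48.6 and 88.7 CPM in webs 2 to 4, and rose against web 4 by 1.61 ± 0.134 (edgeR, adjusted p = 4e-05). HEY2, its paralogue, stood at 28.1 and 33.3 CPM, against 35.1, 61.8 and 88.6 CPM, and fell against web 4, with -1.41 ± 0.121 (adjusted p = 4.9e-05). JAG1, a ligand, stood at 97.2 and 149 CPM, against 145, 184 and 227 CPM, so HW1 overlapped the rest. The overlap was with FW2, at 145 CPM, and each web 1 library was the lowest of its own limb. JAG1 passed against web 3 (-0.78 ± 0.116, edgeR, adjusted p = 0.0024) and web 4 (-0.52 ± 0.116, adjusted p = 0.016). It did not pass against web 2 (-0.55 ± 0.116, adjusted p = 0.092).

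Of 34 axon guidance genes, signals that also sort limb cells, 6 lay below and 4 above, where all genes gave 9.86% and 12.3%. SEMA3D, a secreted semaphorin, stood at 40.1 and 37.0 CPM in FW1 and HW1, against 42.9, 87.3 and 132 CPM in webs 2 to 4, with web 2 close to web 1 (-0.24 ± 0.0865, edgeR, adjusted p = 0.28) and web 4 far above it (-1.76 ± 0.088, adjusted p = 1.2e-06). ROBO2, a SLIT receptor, stood at 106 and 93.2 CPM, against 32.8, 58.5 and 83.1 CPM, and its ligand SLIT2 at 52.9 and 53.5 CPM, against 53.4, 105 and 142 CPM. ROBO2 was higher than in web 4 by 1.43 ± 0.0945 (adjusted p = 8.9e-06). SLIT2 in web 1 overlapped the FW2 level.

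In the hedgehog list of 8 genes 1 lay below and 1 above, about the share of all genes (9.86% and 12.3%). SMO, the signal transducer, stood at 31.1 and 37.7 CPM in FW1 and HW1, against 41.2, 48.5 and 53.9 CPM in webs 2 to 4, with -0.47 ± 0.122 from web 4 (edgeR, adjusted p = 0.033). PTCH1, receptor and target, stood at 12.4 and 11.3 CPM, against 7.44, 9.38 and 10.8 CPM, and passed against no web (adjusted p 0.16 to 0.52).

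Of 19 skeletal muscle genes tested, 14 lay above the other 6 libraries and 0 below, where all genes gave 12.3% and 9.86%. The median log2 difference of the list was 1.49. Against web 3, 13 rose, and against web 4, 2 rose, where 5.8% and 6.76% of all genes rose. Against web 2, 0 passed. The summed level was 742.4 CPM in FW1 and 1276 CPM in HW1, against 211.0 to 650.6 CPM in webs 2 to 4, with the highest of these in FW4. TNNT3, a fast troponin, stood at 53.4 and 69.3 CPM, against 11.2, 19.4 and 34.3 CPM, with 1.45 ± 0.414 from web 4 (edgeR, adjusted p = 0.049). NEB, which encodes the thin filament protein nebulin, stood at 12.3 and 13.2 CPM, against 2.02, 3.51 and 6.64 CPM, with 1.88 ± 0.445 from web 4 (adjusted p = 0.021).

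Other muscle genes had a wide spread among webs 2 to 4. MYMK, the myoblast fusion protein myomaker, stood at 4.29 and 4.34 CPM in FW1 and HW1, against 0.493, 1.03 and 2.43 CPM in webs 2 to 4, and passed against web 3 (2.68 ± 0.53, edgeR, adjusted p = 0.011) and not against web 4 (1.46 ± 0.503, adjusted p = 0.096). Outside the list, MSTN, which encodes the muscle growth inhibitor myostatin, stood at 3.70 and 4.51 CPM, against 0.937, 1.28 and 1.56 CPM, with 1.45 ± 0.393 from web 2 (adjusted p = 0.17) and 1.79 ± 0.401 from web 4 (adjusted p = 0.016). MSC, a myogenic repressor also called musculin, stood at 11.9 and 18.2 CPM, against 3.60, 5.42 and 6.55 CPM. It differed by 1.46 ± 0.302 from web 2 (adjusted p = 0.087) and 1.55 ± 0.307 from web 4 (adjusted p = 0.0081). MSTN and MSC were named by a rule that requires a gap wider than the range of the other 6.

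Of 12 macrophage genes tested, 10 lay above the other 6 libraries and 0 below, where all genes gave 12.3% and 9.86%. The median log2 difference of the list was 0.81. Against web 3, 11 rose, and against web 4, 9 rose, where 5.8% and 6.76% of all genes rose. Against web 2, 0 passed. The summed level was 300.9 CPM in FW1 and 264.6 CPM in HW1, against 117.8 to 209.4 CPM in webs 2 to 4. CSF1R, the receptor for macrophage growth factor, stood at 68.5 and 52 CPM, against 25.1, 28.8 and 47.0 CPM, with 1.05 ± 0.143 from web 4 (edgeR, adjusted p = 0.00097). CD74, the MHC class II invariant chain, stood at 49.3 and 49.0 CPM, against 21.6, 25.9 and 33.8 CPM, with 0.92 ± 0.109 from web 4 (adjusted p = 0.00038).

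Of 11 mitochondrially encoded genes 8 lay above the other 6 libraries and 0 below, where all genes gave 12.3% and 9.86%. The sum of the list was 7546 CPM in FW1 and 8463 CPM in HW1, against 4146 to 6599 CPM in webs 2 to 4. Its median log2 difference was 0.58. Against web 4, 7 rose and 0 fell, where 6.76% of all genes rose and 4.68% fell. Against web 2, 0 passed. COX3, a cytochrome oxidase subunit, stood at 5590 and 6020 CPM, against 2950, 3540 and 4860 CPM, with 0.82 ± 0.123 from web 4 (edgeR, adjusted p = 0.0016). ND4L, which overlaps ND4, had 5424 and 6272 counts in FW1 and HW1, 5195 in FW2 and 2799 in FW3, and 2 counts in each of FW4, HW2, HW3 and HW4, so its value is not a measure of web 1. Without ND4L, 7 of 10 lay above, and 6 rose and 0 fell against web 4. The sums of the mitochondrial, muscle, macrophage and epidermis lists were each highest in the 2 web 1 libraries, and the part of any of them in the results of the others was not tested.

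**Figure D5:**
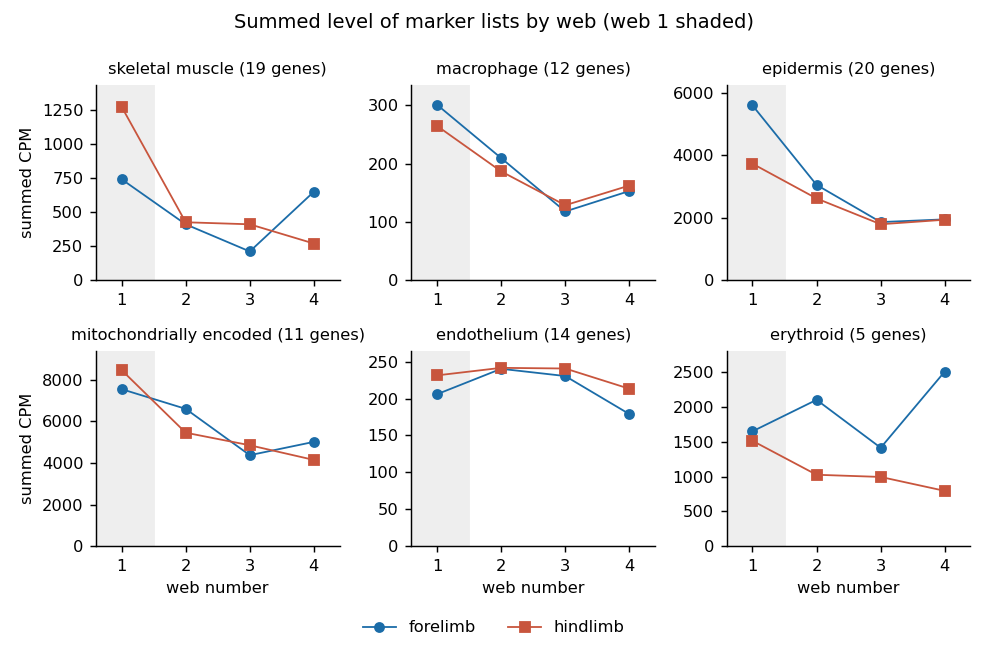
Summed CPM of 6 marker lists (vertical axes, from 0) by web number in forelimb (blue circles) and hindlimb (red squares), 1 library per point and web 1 shaded. The skeletal muscle, macrophage, epidermis and mitochondrially encoded sums were highest in web 1 in both limbs, while the endothelium and erythroid sums in web 1 lay within those of webs 2 to 4.

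Of 14 endothelial genes 0 lay outside the other 6 libraries, although against web 4, 4 rose and 1 fell, and their sum was 205.8 CPM in FW1 and 231.3 CPM in HW1, against 178.9 to 241.5 CPM in webs 2 to 4. Of 5 erythroid genes 0 lay outside, with sums of 1652 and 1516 CPM, against 796.3 to 2512 CPM. Of 13 nerve and Schwann cell genes 2 lay above and 0 below. Of 17 cartilage genes 0 lay above and 1 below, while 4 rose and 1 fell against web 4. Among all genes 12.3% lay above and 9.86% below, and 6.76% rose and 4.68% fell against web 4.

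Of 28 cell cycle genes tested, 5 lay below the other 6 libraries and 0 above, with a median log2 difference of -0.14. All genes gave 9.86% below and 12.3% above. Against web 3, 7 fell and 0 rose, against web 4, 6 fell and 0 rose, and against web 2, 0 passed. Among all genes 3.74% fell and 5.8% rose against web 3, and 4.68% fell and 6.76% rose against web 4. The cell cycle genes named here belong to the replication machinery. MCM2, a subunit of the replicative helicase, stood at 138 and 171 CPM in FW1 and HW1, against 180, 205 and 227 CPM in webs 2 to 4, with -0.41 ± 0.0834 from web 4 (edgeR, adjusted p = 0.0095). MCM5 stood at 243 and 300 CPM, against 302, 345 and 376 CPM, with -0.39 ± 0.0809 from web 4 (adjusted p = 0.01). The summed level of the list was 3786 CPM in FW1 and 4444 CPM in HW1, against 4197 to 5084 CPM, so the sums overlapped.

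Of 23 cell death genes 4 lay above the other 6 libraries and 2 below, near the 12.3% and 9.86% of all genes. Against web 3, 2 rose, and against web 4, 4 rose, where 5.8% and 6.76% of all genes rose. BMF, a pro-apoptotic member of the BCL2 family, stood at 148 and 129 CPM in FW1 and HW1, against 66.6, 76.2 and 122 CPM in webs 2 to 4. It was higher than in web 4 by 0.99 ± 0.0965 (edgeR, adjusted p = 0.00011), with web 2 next to web 1. BNIP3, a mitochondrial protein of cell death and mitophagy, stood at 63.4 and 54.4 CPM, against 30.3, 39.4 and 42.8 CPM, with 0.54 ± 0.121 from web 4 (adjusted p = 0.017).

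Genes with a gap wider than the range of the other 6 included some of little known limb role. PLCXD3, a phospholipase-like gene, stood at 1.66 and 1.53 CPM in FW1 and HW1, against 3.11, 3.72 and 4.04 CPM in webs 2 to 4, and passed against web 3 and web 4 (edgeR, adjusted p = 0.033 and 0.025). STK17A, a serine-threonine kinase, stood at 18.4 and 16.8 CPM, against 10.8, 11.1 and 12.3 CPM, and passed against web 3 and web 4 (adjusted p = 0.02 and 0.026). Neither PLCXD3 nor STK17A passed against web 2 (edgeR, adjusted p = 0.11 and 0.14). In both, the gap of web 1 was wider than the range of webs 2 to 4, which the rule that named them requires.

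Whether web 1 stood apart differently in the hindlimb and the forelimb was tested as an interaction of limb and web 1. In edgeR 0 of 14386 genes passed (0.0%), with 277 at an unadjusted p under 0.05 and a lowest adjusted p of 0.28, while DESeq2 called 7. The lowest p in edgeR belonged to CDK19, a kinase of the Mediator complex, which stood at 24.4 CPM in FW1 and 70.3 CPM in HW1, against 62.9, 66.2 and 77.2 CPM in webs 2 to 4. Only FW1 was low. The interaction was 1.65 ± 0.186 (adjusted p = 0.28). PITX1, a hindlimb gene upstream of TBX4, stood at 14.5 CPM in FW1 and 53.8 CPM in HW1, and each was the lowest of its own limb, where FW2 to FW4 held 30.1, 97.2 and 44.8 CPM and HW2 to HW4 held 106, 148 and 107 CPM. The 2 limbs overlap across webs, so PITX1 was not among the genes set apart, and it was lower than in web 4 by -1.28 ± 0.247 with limb as covariate (adjusted p = 0.0072).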

How the data were processed

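Per the labels' protocols, column-purified total RNA went into NEBNext Ultra libraries that were read in paired-end mode on an Illumina platform. Strand use was not stated, so overlapping and antisense genes cannot be told apart. HISAT2 2.2.1 and StringTie 2.1.7 are named in the submitters' processing notes; the genome build is not given in the sources used here, nor is the annotation. The authors deposited a table of whole-number counts per gene, not normalised, and a table of TPM per gene, scaled to length and a fixed total, which also gave the symbols. Of the 20472 counts between 1 and 40, 35.5% were multiples of 4, where an even spread gives 25%; a count thus need not be 1 read pair, and counting intervals are left out. Genes without a symbol took 16.1% of counts, while 288 genes sharing a symbol stayed separate.

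The filterByExpr function of edgeR, grouped by limb, was applied (minimum count 10, minimum total 15), leaving 14386 of 19328; libraries were scaled by TMM (factors 0.973 to 1.02). R 4.3.3, edgeR 4.0.16, limma 3.58.1 and DESeq2 1.42.0 were used. Tests were edgeR quasi-likelihood tests over all genes, with limb as covariate: web 1 against webs 2 to 4 (5 residual degrees of freedom), against each web with web as a factor (3), beyond a linear trend (4), and the interaction with limb (4). Every log2 difference is web 1 minus the web named, its SE is the difference over the root of F, and list medians are of web 1 minus webs 2 to 4. Tests were also run on simulated counts that held no differences among webs 2 to 4, unlike these data. The outcome is not reported here and is not used as support. Depth was 53116512 to 65849337 counts a library, and genes near the filter are the least precise.

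Members, lists and tests were chosen with earlier results of these data known. Named genes were a patterning set, for each list up to 4 that were called, or else 2 of high abundance, the 3 lowest p of the interaction, and genes called with the largest change or step. Because the pooled comparison and the interaction called none in edgeR and the trend test named no gene under these rules, rules using the web factor (its mean contrast and the calls against web 2) and the trend call were added after seeing the data, and values are given for part of the genes. Some patterning genes, HOXA13 and TBX3 among them, were not analysed here, and some named genes are not reported here.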

Additional observations from a re-analysis of the deposited data

Results flagged for a closer look

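Among 121 genes checked for a single library of webs 2 to 4 that stood away from its group, 1 was found. FGFR3, an FGF receptor, stood at 52.3 CPM in FW2, where the next highest of the 6 libraries had 37.2 CPM and the lowest 29.2 CPM. The gap was 0.654 of the whole range, above Dixon's critical value for 6 samples. Chance puts about 1 in 20 groups past that value. FGFR3 stood at 78.6 CPM in FW1 and 49.1 CPM in HW1, so FW2 alone kept it from being set apart in web 1.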

How the results depend on the processing

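The pooled comparison of web 1 with webs 2 to 4, with 0 calls, gave 1076 in DESeq2, 255 in limma-voom, 1 with no low-count filter, 22 with a robust prior, 113 with no limb covariate, 1641 with web as a factor and 1367 without both web 2 libraries; leaving out single libraries gave 0 to 415, with 376 without FW2 and 415 without HW2. The 53 calls against web 2 became 357 in DESeq2 and 82 with a robust prior, and 6 to 257 with a library left out. The 1373 calls against web 3 ran between 302 and 1970 with a library left out (466 without FW1, 761 without HW1, 302 without FW3, 625 without HW3), and the 1645 against web 4 between 732 and 1616 (732 without FW1, 935 without HW1). Against the mean of webs 2, 3 and 4 the range was 358 to 2265 (358 without FW1, 686 without HW1, 908 without FW3). The trend test gave 214 in DESeq2, 2 with no filter, 9 with a robust prior and 0 to 9 with a library left out. The interaction gave 7 in DESeq2 and 0 to 2 with a library left out (2 without FW4), and could not be fitted without FW1 or HW1. The count of genes set apart was 3399 to 6405 with a library left out, 5437 without FW1 and 6405 without HW1, since fewer libraries make the rule easier to meet. The cause of the other shifts was not tested.

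In the pooled comparison the sign turned for CDK19, to 0.10 without FW1 (range of the leave-outs -1.56 to 0.10), and for TGFBI, to 0.01 without FW1, 0.07 without FW2 and 0.02 without HW2 (range -0.33 to 0.07). No other symbol with a difference given in the report turned there under an alternative tried. The median log2 difference of all genes was 0.0046 after TMM, 0.033 by library size and 0.041 to 0.049 on TPM. The limb covariate pairs FW1 with FW2 to FW4 and HW1 with HW2 to HW4 in each fit, and the fit without it is the unpaired one.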
